A study of Rattus norvegicus with 2 samples.

Results

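Collagens, small leucine-rich proteoglycans and other secreted matrix proteins were followed at 2 phosphate levels in H9c2, a cardiomyoblast cell line established from the heart of a rat embryo. The 7 genes described are the collagen chains Col1a1, Col3a1 and Col4a1, the proteoglycans Dcn and Lum, the thrombospondin Thbs1 and the secreted protein gene Ccdc80. They were taken by symbol from 7803 entries with a usable gene identifier among 8039 listed. They were selected on the FPKM of the same 2 libraries, with the difference between them known, so their values and differences are given as a description. The cells came from 1 line, were grown with fetal bovine serum, and were then moved to serum-free medium holding 0.9 mM phosphate (control) or 2.5 mM phosphate (high phosphate) for 12 h. Each level had 1 library. No difference below therefore has a replicate check, and no test was made. Nothing in the labels says whether both cultures were treated on the same day.

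The extracellular matrix is a scaffold of collagen fibres, sheet-like basement membranes and the proteoglycans and glycoproteins bound to them. Collagen chains are hydroxylated and wound into triple helices inside the cell, then secreted and crosslinked outside it. In the heart, fibroblasts lay down most fibrillar collagen, types I and III, while type IV collagen forms the basement membrane around muscle cells and vessels, and an excess of fibrillar collagen marks fibrosis. Decorin and lumican bind collagen fibrils and regulate their width and spacing, and decorin also binds TGF-beta. Thrombospondin-1 can activate latent TGF-beta.

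The values are FPKM, fragment numbers scaled for transcript length and sequencing depth, so that levels of different genes can be compared. How the 2 libraries were scaled to each other is not stated. The number of reads is unknown. Listed values summed to 307622 FPKM in control cells and 346857 FPKM in the high phosphate library, a ratio of 1.13. Differences are given as log2((high phosphate FPKM + 1)/(control FPKM + 1)), called the log2 ratio, in which the added 1 shrinks the difference of low genes. Genes whose mean over the 2 libraries reached 1 FPKM, 4366 in number, are called measured, and their median log2 ratio was 0.00. Of the markers of muscle, desmin (Des) was listed at 128.5 FPKM in control cells and 153.3 FPKM at high phosphate and Myod1 at 6.11 and 1.59 FPKM, while Myog stood at 0.13 and 0.06 FPKM and Myh7 at 0 in both. Skeletal actin (Acta1) was listed at 1.57 FPKM in control cells and 1.64 FPKM at high phosphate. The other 7 of the 12 muscle markers, among them Gata4, Tbx5 and Nkx2-5, were not analysed here. The cardiac calsequestrin gene Casq2, which is not in that marker list and was chosen after its values were seen, had 47.6 and 75.5 FPKM.

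All 7 genes were listed higher in the high phosphate library, beside 50.5% of all measured genes as deposited. After scaling both libraries to the same sum, 6 stayed higher (Thbs1 turned), beside 32.2% of all measured genes. At 2-fold or more on the log2 ratio, 1 of the 7, Ccdc80, was higher and none was lower, against 1.76% and 0.87% of all measured genes. At 1.5-fold or more, 6 of the 7 were higher, all but Thbs1, against 7.21%. Because these 2 libraries also served to choose the 7, nothing is read from these counts. Their log2 ratios ran from 0.17 for Thbs1 to 1.54 for Ccdc80, with a median of 0.78. Together they held 0.484% of the listed FPKM in control cells and 0.622% in high phosphate.

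**Figure D1:**
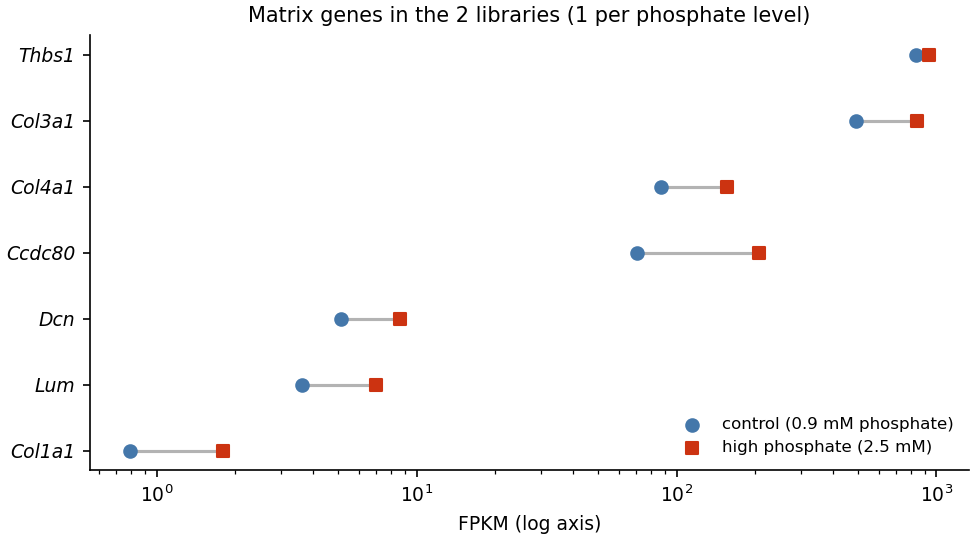
FPKM of the 7 matrix genes on a log axis, with a circle for the control library (0.9 mM phosphate) and a square for the high phosphate library (2.5 mM), 1 library each. The square lies to the right of the circle for every gene, with the widest gap for Ccdc80 (70.4 and 207 FPKM) and the narrowest for Thbs1 (833 and 934 FPKM).

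Levels of the 7 genes spanned 3 tiers. Thbs1 and Col3a1 stood highest in both libraries, Col4a1 and Ccdc80 lay between, and Dcn, Lum and Col1a1 were under 10 FPKM. The order was the same in both libraries except that Ccdc80 lay under Col4a1 in the control and above it in high phosphate. With 1 library each, the spread that would tell neighbours in this order apart is unknown.

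Type III collagen, encoded by Col3a1 (Entrez 84032), forms thin fibrils in stretchable tissue. It was listed at 489 FPKM in control cells and 844 FPKM at high phosphate. The listed values were 1.73-fold apart, with a log2 ratio of 0.79, and 162 of the 4366 measured genes had a higher ratio. Of 43 collagen chains in the matrix lists, 13 were listed and 5 were measured, and Col3a1 held 80.9% of the summed FPKM of the listed chains in the control and 80.3% in high phosphate. Its share of the listed collagen thus stayed almost level while that sum went from 604 to 1050 FPKM.

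Col1a1 (Entrez 29393), the main chain of type I collagen, was at the opposite end of the scale. It was listed at 0.79 FPKM in control cells and 1.8 FPKM at high phosphate, 2.28-fold apart as listed but with a log2 ratio of 0.65. It ranked 4196 of 4366 measured genes by mean level and passed the filter on low values through the high phosphate library alone, with a mean of 1.29 FPKM. At this level a value can also reflect a poor estimate, and its partner chain gene Col1a2 was not analysed here.

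Col4a1 (Entrez 290905), a chain of the type IV collagen network of basement membranes, was listed at 87.4 and 156 FPKM. These were 1.78-fold apart, with a log2 ratio of 0.83 that 144 measured genes exceeded. Col3a1 was 5.59 times as high as Col4a1 in the control and 5.41 times in high phosphate, so both chains differed between the libraries by a similar factor. Its usual partner Col4a2, which lies beside it in the genome, was not analysed here.

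Of the collagen-binding proteoglycans, Dcn and Lum were low. Decorin (Dcn, Entrez 29139) was listed at 5.11 FPKM in control cells and 8.63 FPKM at high phosphate, 1.69-fold apart, with a log2 ratio of 0.66. Lumican (Lum, Entrez 81682) was listed at 3.63 and 6.97 FPKM, 1.92-fold apart, with a log2 ratio of 0.78. Both were thus higher at high phosphate by a similar factor, and Dcn was 1.41 times as high as Lum in the control and 1.24 times in high phosphate. The 2 genes are neighbours on chromosome 7 in the GRCr8 gene table. Next to them, Btg1, a gene that restrains proliferation, was listed at 90.4 and 124.9 FPKM, and Kera and Epyc, the other proteoglycan genes of this cluster, were not analysed here. Biglycan (Bgn), the proteoglycan most like decorin, was listed at 1766 and 2442 FPKM, 346 times the level of Dcn in the control and 283 times in high phosphate.

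Thrombospondin-1 (Thbs1, Entrez 445442), a secreted glycoprotein that signals to cells and restrains vessel growth, was the most abundant of the 7 and differed least. It was listed at 833 FPKM in control cells and 934 FPKM at high phosphate, 1.12-fold apart, and 1359 measured genes had a higher log2 ratio than its 0.17. When both libraries were scaled to the same sum of listed FPKM, its log2 ratio was -0.01, while the median of all measured genes moved to -0.15. Its direction therefore depended on the scaling, and the other 6 genes stayed higher. Thbs1 was 1.71 times as high as Col3a1 in the control and 1.11 times in high phosphate.

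Ccdc80 (Entrez 64387), which encodes a secreted protein that binds matrix, showed the largest difference of the 7. It was listed at 70.4 FPKM in control cells and 207 FPKM at high phosphate, 2.94-fold apart, with a log2 ratio of 1.54. Of all 4366 measured genes 26 had a higher ratio, and of the 873 in the most abundant of 5 equal bins 3 did. Thbs1 was 11.8 times as high as Ccdc80 in the control and 4.51 times in high phosphate. The ratio of Ccdc80 stayed above 2-fold under each of the 6 other pseudocounts and scalings, between 1.37 and 1.56.

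**Figure D2:**
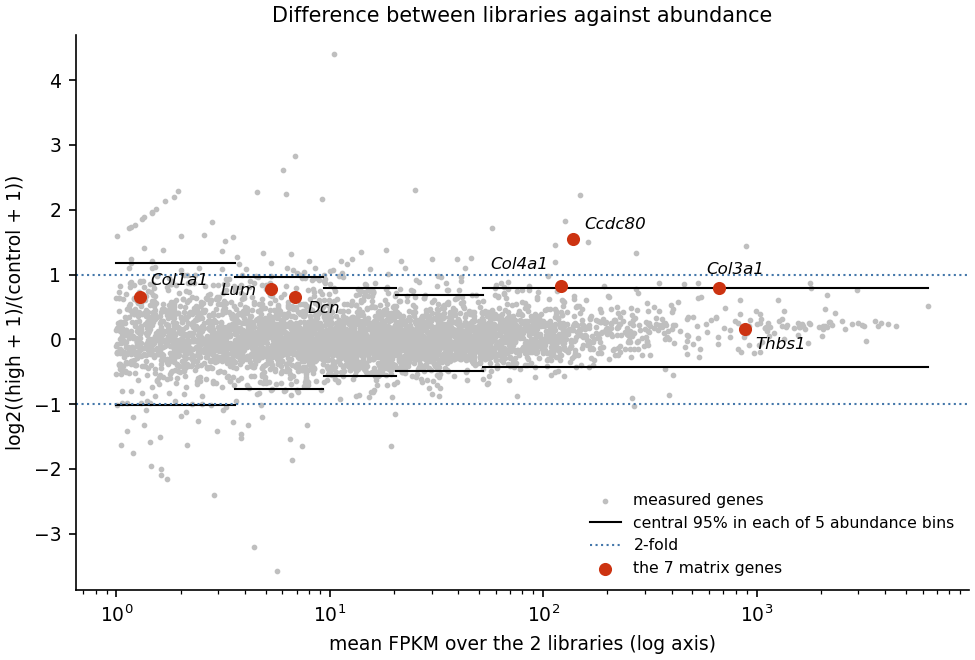
Log2 ratio of high phosphate over control against mean FPKM (log axis) for 4366 measured genes (grey) and the 7 matrix genes (red). Black lines bound the central 95% of ratios in 5 equal bins of mean FPKM, and dotted lines mark 2-fold. Ccdc80 (1.54) and Col4a1 (0.83) lie above the upper line of the top bin (0.79), Col3a1 lies just under it, and Thbs1 lies near the middle.

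Because low genes vary more, each gene was also placed among genes of like level. In the most abundant of 5 equal bins, the median was 0.10 and the middle 95% of ratios lay between -0.42 and 0.79. Ccdc80 and Col4a1 lay above that range, and Col3a1 lay just inside it with 23 of 873 genes higher. In the second lowest bin the range was -0.77 to 0.97, and both Dcn and Lum were inside, with 57 and 39 of 873 genes higher. Col1a1 lay inside the range of the lowest bin, -1.02 to 1.18, with 83 of 874 genes higher. These ranges describe the genes of these libraries and not the error of any gene.

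Promoter sequence is shown for the genes with the largest and the smallest difference, so that the start regions of Ccdc80 and Thbs1 can be compared. Promoters of 4 of the 7 genes, Ccdc80, Col4a1, Lum and Thbs1, were matched in a RefSeq table for GRCr8, a later build than that of the deposited values. Each sequence is the 250 bases before the start of transcription, 5′ to 3′ on the strand of the gene. The window of Ccdc80 is chr11:69224845-69225094 on the minus strand and that of Thbs1 is chr3:125510000-125510249 on the plus strand. Capitals mark any match, on either strand, to the TATA box letters TATAAA, the CCAAT box CCAAT, the GC box GGGCGG, the SMAD element CAGAC and the hypoxia element core ACGTG.
Ccdc80: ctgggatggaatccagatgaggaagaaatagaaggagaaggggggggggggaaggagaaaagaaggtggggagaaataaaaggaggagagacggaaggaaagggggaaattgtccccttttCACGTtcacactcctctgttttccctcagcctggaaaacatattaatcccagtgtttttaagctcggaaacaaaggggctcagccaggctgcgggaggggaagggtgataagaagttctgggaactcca
Thbs1: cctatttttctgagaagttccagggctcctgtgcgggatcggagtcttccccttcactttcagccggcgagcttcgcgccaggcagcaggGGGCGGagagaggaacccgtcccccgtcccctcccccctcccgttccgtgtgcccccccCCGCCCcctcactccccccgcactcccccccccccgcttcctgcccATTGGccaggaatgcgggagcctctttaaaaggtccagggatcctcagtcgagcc

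The Ccdc80 window held 1 match, ACGTG on the opposite strand at 129 bases before the start, and 50.4% G and C bases. The Thbs1 window held 67.6% G and C bases, with GGGCGG at 160 and, on the opposite strand, at 101 bases before the start and CCAAT on the opposite strand at 55. No matches overlapped. Among all 33469 promoters in the table the median was 51.2% G and C, and 16.6% held ACGTG, 30.5% GGGCGG and 34.0% CCAAT. Col4a1 had 1 match each to CCAAT and GGGCGG, and Lum had 1 to CCAAT and 3 to CAGAC, which 42.9% of all promoters held. None of the 4 had TATAAA, found in 12.9% of promoters. These letters describe the windows, and no measurement here bears on binding.

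The other core matrix genes were read from lists written with earlier results of these data known. Of 168 such genes besides the 7, 66 were listed and 30 were measured. Of the 30, 26 were listed higher and 4 lower in high phosphate, with a median log2 ratio of 0.50, beside 50.5% listed higher and a median of 0.00 for all measured genes. At least 2-fold higher were 6 (Mgp, Col8a2, Hapln3, Mfap5, Spon2 and Lamb3) and none was 2-fold lower, beside 1.76% and 0.87% of all measured genes. Col8a2, at 0 in control cells, passed the filter on low values only through the library where it was high. Without genes under 1 FPKM in either library, 25 of 29 were listed higher, with a median of 0.49. Under this setting 50.2% of all genes were listed higher, with a median of 0.00. After scaling to the same sum, 22 of the 30 were higher and 8 lower, with a median of 0.33, when 32.2% of all measured genes were higher and their median was -0.15. Without the filter on low values, 41 of the 66 listed genes were higher and 19 lower, and the median fell to 0.06. Of all 7803 genes, 47.3% were then higher, with a median of 0.00. Some of the 30 measured, such as Bgn and Ccn1, lay in the most abundant bin, whose median as deposited was 0.10.

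Among the other collagens, Col18a1, whose chain is a basement membrane collagen and the source of endostatin, was listed at 26.5 and 45.5 FPKM, with a log2 ratio of 0.76. Col8a2, a short-chain collagen, was listed at 0 in the control and 2.02 FPKM at high phosphate, and Col11a1, a minor fibrillar chain, at 0.26 and 1.14 FPKM with a mean under 1. The listed fibrillar chains besides Col3a1 were thus under 1 FPKM in control cells. Podnl1, a leucine-rich proteoglycan gene, had a log2 ratio of 0.63 and Bgn one of 0.47. Hapln3, which encodes a link protein for hyaluronan, was listed at 1.27 and 5.79 FPKM, while Hapln4 had 9.6 and 8.86 FPKM.

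Of the matricellular genes, the list that holds Thbs1 and Ccdc80, 7 of 8 further measured were listed higher, beside 50.5% of all measured genes. Their median log2 ratio was 0.37 as deposited. After scaling to the same sum 5 of the 8 were higher, beside 32.2% of all measured genes. Spon2, a secreted spondin, had 4.42 and 11.5 FPKM, and Sparc, a collagen-binding protein needed for fibril assembly, 326 and 592 FPKM. Ccn5 was the 1 measured gene of the list that was lower as deposited, with 68.2 and 42.6 FPKM. The most abundant, osteopontin (Spp1), had 1985 and 2058 FPKM, a log2 ratio of 0.05. Ccn1 had the same log2 ratio as Thbs1, 0.17, and both Ccn1 and Spp1 were lower after scaling to the same sum.

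Of the elastic fibre genes, 3 of 3 measured were listed higher, beside 50.5% of all measured genes. The microfibril gene Mfap5 led them with 23.2 and 55.9 FPKM. The latent TGF-beta binding protein genes Ltbp2 and Ltbp4 had log2 ratios of 0.22 and 0.56. In the basement membrane, the setting of Col4a1, 4 of 5 were listed higher, beside the same 50.5%. The laminin chain gene Lamb3 was listed at 12.7 and 30.5 FPKM and the linker nidogen-1 (Nid1) at 47.3 and 83.2 FPKM, whereas Lamb2 had a log2 ratio of 0.16 and Lama1 one of -0.14. Among other matrix glycoproteins 7 of 8 were listed higher, beside 50.5% of all measured genes. After scaling to the same sum 5 were higher, beside 32.2% of all measured genes. Mgp, an inhibitor of calcification, led this class with 1.52 and 10.9 FPKM. In this class Ecm1 had a log2 ratio of 0.54, the abundant procollagen C-proteinase enhancer Pcolce had 589 and 826 FPKM, and Matn4 and Igfbp6 were lowest with log2 ratios of -0.08 and 0.01.

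**Figure D3:**
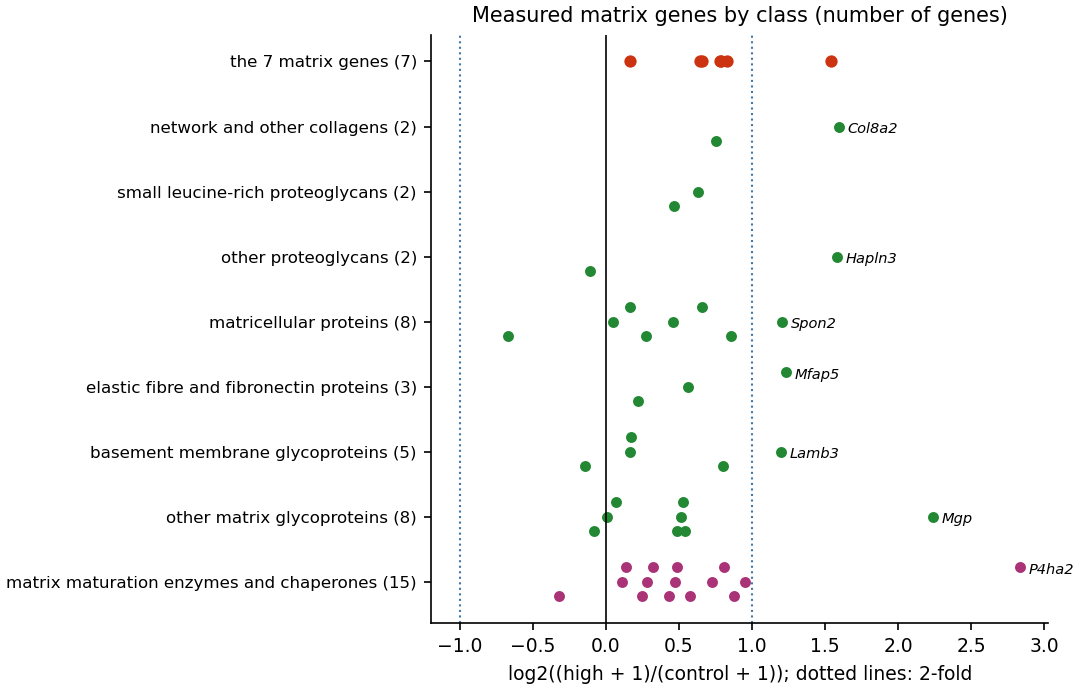
Log2 ratio of high phosphate over control, 1 point per measured gene, for the 7 matrix genes (red), the other core matrix genes by class (green) and genes of matrix maturation (purple); dotted lines mark 2-fold and named points lie beyond it. Most points lie right of 0, with medians of 0.50 for the 30 other core matrix genes and 0.47 for the 15 maturation genes; Pcolce appears in 2 classes.

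Of 15 measured genes that modify, fold or crosslink collagen and other matrix, 14 were listed higher and 1 lower, beside 50.5% of all measured genes listed higher, with a median log2 ratio of 0.47. The prolyl hydroxylase subunit P4ha2 was the 1 gene at least 2-fold higher, beside 1.76% of all measured genes. It was listed at 0.94 and 12.9 FPKM, and without genes under 1 FPKM in either library, which leaves it out, 13 of 14 were listed higher. The lysyl hydroxylase Plod2 had 4.72 and 10.1 FPKM. Serpinh1, the collagen chaperone HSP47 and the most abundant of the list, had 1426 and 1693 FPKM. Lowest were B3galt6, which builds the linker of glycosaminoglycan chains, with 3.19 and 2.35 FPKM, and the dermatan sulfate enzyme Chst14 with a log2 ratio of 0.11. After scaling to the same sum, 12 of the 15 were higher and 3 lower, beside 32.2% of all measured genes higher.

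The TGF-beta pathway is a main inducer of matrix genes. Of 11 measured genes of the pathway, 5 were listed higher and 6 lower, a share near the 50.5% of all measured genes listed higher, with a median log2 ratio of -0.01, and Ccn2, Ltbp2 and Tgfbi are shared with the matrix lists. The ligand gene Tgfb3 had 56.2 and 95.0 FPKM, and the matrix target Tgfbi 32.1 and 51.2 FPKM. The inhibitor Smad7 had 11.6 and 4.05 FPKM and Id3 358 and 175 FPKM, both at least 2-fold lower, as were 0.87% of all measured genes.

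Markers of cell types that make matrix were listed beside these values. Of 9 fibroblast markers 6 were listed, summing to 3548 FPKM in control cells and 3590 FPKM at high phosphate. Of the 3 measured, 1 was listed higher, beside 50.5% of all measured genes. S100a4 had 3291 and 3249 FPKM, Pdgfrb 24.7 and 24.4 FPKM and Thy1 232 and 317 FPKM, while Pdgfra was listed at 0 in both libraries. Of 6 smooth muscle markers 5 were listed, summing to 2992 and 4327 FPKM. Among them Myh11 had 0.6 and 0.61 FPKM, a mean under 1. All 4 measured were listed higher, beside the same 50.5%. After scaling to the same sum 3 of the 4 were higher, beside 32.2% of all measured genes. Acta2, smooth muscle actin and also a sign of myofibroblasts, had 1647 and 2651 FPKM, Cnn1 28.1 and 40.8 FPKM, and Tagln and Myl9 log2 ratios of 0.44 and 0.05. In bulk RNA, more cells of a type and more RNA per cell cannot be told apart, and the part of these markers in the matrix values was not tested.

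Of the listed markers of other cell types, only Krt8, Fabp4 and Cd68 were measured, and the rest averaged under 1 FPKM. The 4 listed endothelial markers summed to 0.08 FPKM in control cells and 0.36 FPKM at high phosphate, with Tek at 0 in the control and Kdr at 0 in high phosphate. The 4 listed macrophage markers summed to 1.21 and 1.6 FPKM, nearly all from Cd68, and Ptprc was at 0 in both. The 2 listed adipocyte markers, Fabp4 and Lpl, summed to 1.78 and 2.96 FPKM. Of 3 listed epithelial markers Krt8 had 139.7 and 247 FPKM, whereas Epcam had 0.02 and 0 FPKM and Cdh1 0.21 and 0.1 FPKM. Of 7 listed reference genes of most cells, 5 were listed higher, beside 50.5% of all measured genes. The median log2 ratio of the 7 was 0.28, against 0.00 for all measured genes. Pgk1, also an enzyme of glycolysis, had 481 and 1307 FPKM. Eef1a1, the most abundant, had 3496 and 4164 FPKM, Gapdh a log2 ratio of 0.76, and Sdha one of -0.08.

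**Figure D4:**
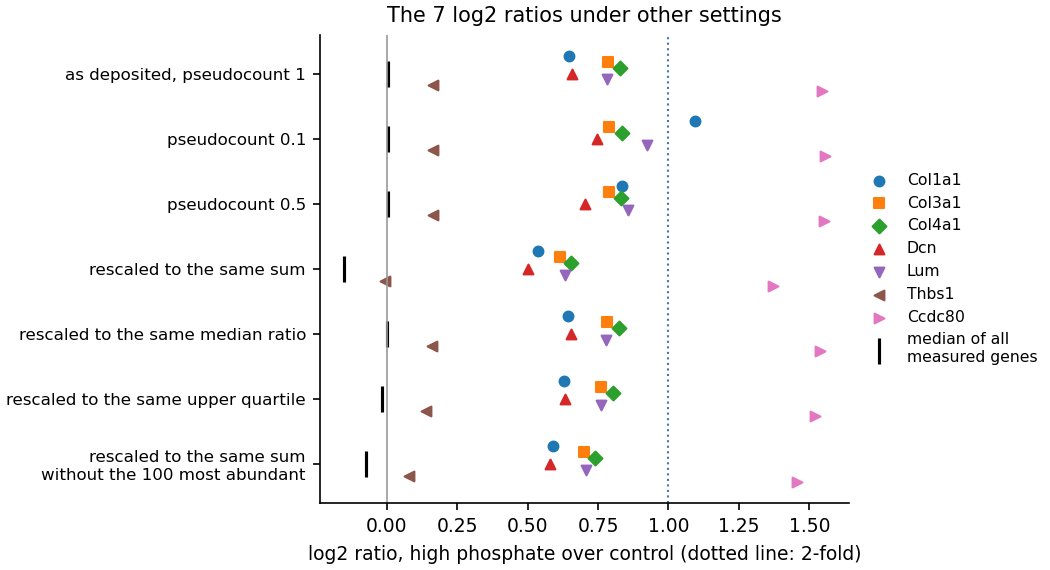
Log2 ratios of the 7 matrix genes as deposited, with 2 other pseudocounts and under 4 rescalings of the libraries; the black bar is the median of all measured genes in each setting and the dotted line marks 2-fold. Ccdc80 stays above 2-fold throughout (1.37 to 1.56), Col1a1 passes 2-fold only with a pseudocount of 0.1 (1.09), and Thbs1 is at -0.01 after rescaling to the same sum, where the median is -0.15.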

How the data were processed

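RNA from 2 H9c2 cultures was sequenced. The deposited values are FPKM made by the authors, per the file headers, rounded to 2 decimals. Tools named in the submitters' processing notes are Cufflinks 2.2.1 with Cuffdiff, TopHat2 2.1.1 and bcl2fastq, and the build is Rnor_6.0. The annotation, strand setting, handling of reads that match several places and scaling between libraries are not stated there or in the labels. Depth is unknown, since low values step by the rounding, so no counting error is given.

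Of 8039 entries, 236 (2.94%, with 8.20% of control and 8.56% of high phosphate FPKM) had no usable identifier and were left out. Of the other 7803, 7746 matched a symbol in a GRCr8 RefSeq gene table. Log2 ratios used a pseudocount of 1 and a mean FPKM filter of at least 1. With 1 library per level there was no test. The members and lists were chosen with earlier results of these data known. Named genes are the 7 members and, in each list, measured genes at least 2-fold apart, the 2 highest, the 2 lowest and the most abundant. Not every gene picked this way is reported here. Genes named outside it (gene neighbours, markers at or near 0, low collagens and Ccn1 among them) were chosen after their values were seen. The code for fold counting was run on copies of the control values with known folds put in and no noise. This checks its arithmetic only and not how reliable the counts are. Python 3.11.15, numpy 2.4.6, pandas 2.3.3 and matplotlib 3.10.9 were used.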

Additional observations from a re-analysis of the deposited data

How the results depend on the processing

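With 1 library per level, values were compared across settings by sign, by side of 2-fold and, for counts, by a factor of 1.5. Of 133 alternative values 113 kept their sign, side or size by this measure. Some could not do otherwise, because a pseudocount does not alter which genes are higher. The measure is also coarse. It counted as kept the core matrix median of 0.06 without the filter on low values, against 0.50. The tally is therefore not read as a sign of how firm the values are. Only the ratio of Thbs1 turned, to -0.0077 after rescaling to the same sum. With a pseudocount of 0.1, 2 of the 7 genes were at least 2-fold higher (Col1a1 at 1.09), and 151 of all measured genes were higher and 62 lower, against 77 and 38. From 1.5-fold, 6 of the 7 were higher, all but Thbs1, beside 315 of all genes higher (7.21%) and 147 lower. From a mean of 5 FPKM, 41 of 3220 genes were 2-fold higher and 8 lower. Of these 3220 genes, 50.6% were listed higher. Beside them, 22 of 24 core matrix genes were higher and 2 lower, and 14 of 14 maturation genes were higher and 0 lower. Without genes under 1 FPKM in either library, a setting chosen after seeing the data, 49 of 4194 genes were 2-fold higher and 19 lower. Core matrix genes listed lower numbered 8 of 30 after rescaling to the same sum, against 4, when 32.2% of all measured genes were higher. They numbered 7 when that sum left out the 100 most abundant entries, with 40.7% of all measured genes higher. After rescaling to the same sum, 3 of 15 maturation genes were lower, against 1, again with 32.2% of all measured genes higher. Without the filter on low values 41 of 66 core matrix genes were higher and 19 lower, with a median of 0.06. Of 18 maturation genes then counted, 14 were higher and 3 lower. Of all genes in that setting 47.3% were higher, with a median of 0.00. Fewer or more genes enter under another filter. The other shifts follow from the arithmetic of the settings. Scaling to the same sum multiplied high phosphate values by 0.887, and a smaller pseudocount shrinks the difference of low genes less. Why the sums of the 2 libraries differ was not tested. No paired analysis was possible because each group has 1 library. Depth is unknown, so the precision of low genes such as Col1a1 cannot be stated.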

Other observations

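Several listed matrix genes fell under a mean of 1 FPKM and stayed out of the counts. These were 36 of the 66 listed core matrix genes besides the 7. Among them were the cartilage collagen Col9a1 with 0.03 FPKM in control cells and 0.04 FPKM at high phosphate, the kidney collagen Col4a3 at 0 in both, elastin (Eln) with 0.39 and 0.25 FPKM, and aggrecan (Acan) with 0.04 and 0.02 FPKM. The procollagen proteinase Bmp1 was listed at 1.42 FPKM in control cells and 0.01 FPKM at high phosphate, and the laminin chain Lamb1 at 0 and 0.4 FPKM. A value near 0 can be a failed estimate, so no fold is given for them. Gulp1, the engulfment adaptor gene beside Col3a1 in the gene table, was listed at 4.22 and 8.28 FPKM, and Irs2, an insulin receptor substrate beside Col4a1, at 6.68 and 5.11 FPKM. These genes were chosen after their values were seen.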
